A study of Mus musculus with 23 samples.

Results

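The step from day 1 to day 3 of serum withdrawal was followed in C2C12 cells labelled as Runx1 knockout (KO). C2C12 is a mouse myoblast line that stops dividing and forms multinucleate myotubes once serum is withdrawn. The step is the difference between the 3 KO libraries of day 3 and the 3 KO libraries of day 1, which are 6 of the 23 libraries of the series, picked out by genotype and day. The step itself was singled out with earlier results of these data known, among them that interferon response genes rise in it. Both groups were kept in differentiation medium with 2% horse serum, for 1 and 3 days, and that time is the only difference the labels state. No batch is given in them. The other groups used for comparison were control cells (WT) on the same days (3 libraries each), cells kept growing in 20% fetal bovine serum on day 0 (3 KO and 2 WT libraries), and both genotypes on day 6 by the sample names, where the design text speaks of 5 days (3 libraries each). Poly(A) RNA was sequenced throughout. The labels give neither the knockout allele nor the number of clones behind it, and they do not say whether replicates were separate cultures, so p-values measure the spread between these libraries, which may be technical.

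Runx1 encodes a DNA-binding transcription factor of the Runt family that is known from blood formation and is also made by activated and denervated muscle cells. In differentiating myoblasts the bHLH factors MyoD and myogenin switch on genes of the contractile apparatus, of calcium handling and of cell fusion. Type I interferons act through the receptor Ifnar1/Ifnar2 and the kinases Jak1 and Tyk2. These phosphorylate Stat proteins such as Stat2, which bind DNA with Irf9 at interferon-stimulated response elements. The genes turned on in this way encode sensors of viral nucleic acid, RNA-degrading and RNA-binding antiviral proteins, large GTPases and the antigen presentation machinery, and many of the signalling components are themselves among the targets.

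Levels are given as CPM, computed from the authors' estimated counts and the TMM-scaled library sizes. Changes are log2 fold changes (log2FC) of day 3 against day 1 from the quasi-likelihood test of edgeR, called at a p under 0.05 after Benjamini-Hochberg adjustment over the 14187 genes tested. The 6 libraries held 22476378 to 23256359 estimated counts each. Day 1 replicate 2 stood apart from its group. It differed from replicates 1 and 3 by a chi-square of 61.7 to 62.1 per degree of freedom, against 7.50 between those and 7.39 to 13.0 within day 3. Its deviation from the group mean correlated with the GC content of genes (r = -0.63 over 13350 genes, which are not independent replicates), and the first principal component of the 6 libraries, with 62.0% of the variance, separated the days while the second, with 16.5%, separated this library. Results that rest on it are therefore also given without it.

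**Figure D1:**
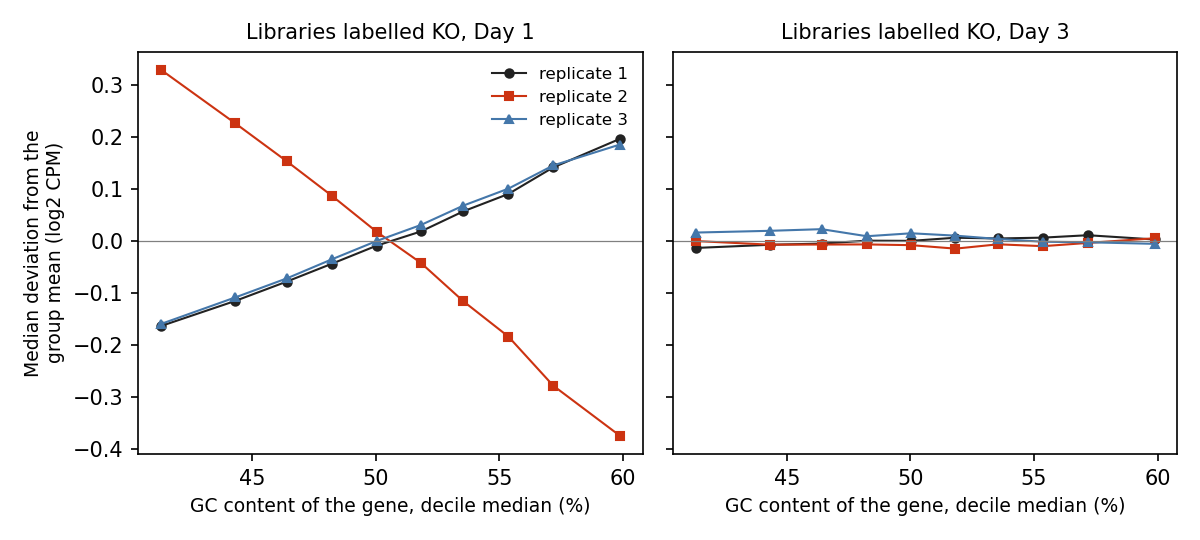
Median deviation of each KO library from the mean of its group (log2 CPM, vertical axis) in 10 classes of genes by GC content (percent, horizontal axis), for day 1 (left) and day 3 (right). Day 1 replicate 2 runs from 0.33 in the class with the lowest GC content to -0.38 in the highest, while the day 3 libraries stay within 0.023 of 0.

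Runx1 mRNA itself went against the knockout label. Runx1 stood at 137, 117 and 138 CPM in the day 1 libraries labelled KO and at 249, 199 and 203 CPM on day 3, so the groups did not overlap (log2FC 0.73, SE 0.08, adjusted p = 3.34e-07; 0.64 without day 1 replicate 2). In WT it was at 104, 108 and 95.6 CPM on day 1 and at 153, 148 and 145 CPM on day 3, below every KO library of the same day. An mRNA level does not show whether protein is made, and all directions below are those of libraries as labelled KO.

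From day 1 to day 3, 3790 of 14187 genes were called (26.7%), of which 2196 rose (15.5%) and 1594 fell (11.2%). Without day 1 replicate 2, 2011 rose and 2002 fell. The KO groups did not overlap in 4889 genes (34.5%). The median log2FC over all genes tested was 0.03. A fit of the 6 libraries alone, with its own estimate of the spread, called 1002 higher and 657 lower. The same kind of fit in WT called more genes than the shared fit, 2310 higher and 2332 lower against 1566 and 1231. The cause of these shifts was not tested. In bulk RNA, fewer cells of a type and less RNA per cell cannot be told apart, which holds for all results below. The log2FC correlated with GC content at r = 0.10 over the genes, and at -0.02 without day 1 replicate 2.

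**Figure D2:**
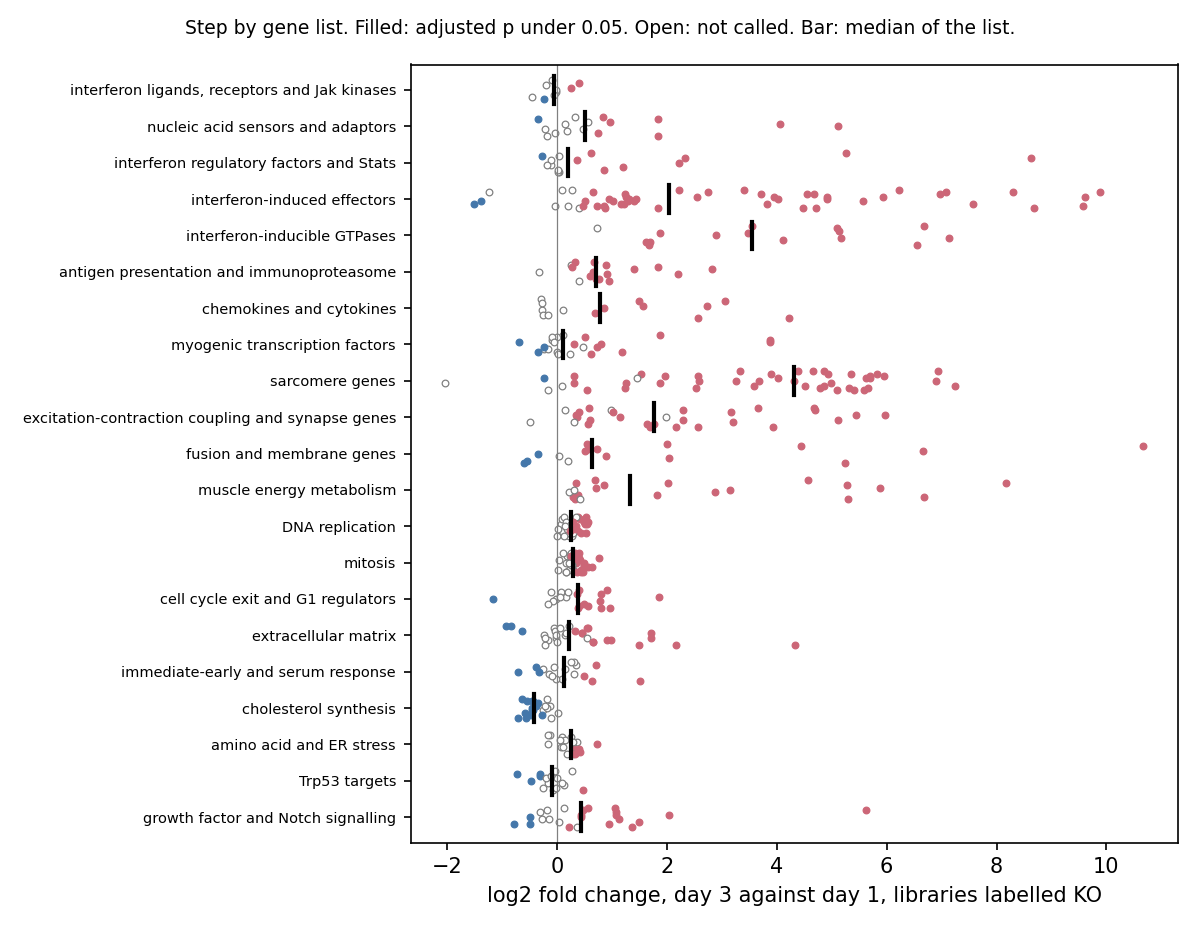
Fitted log2FC of day 3 against day 1 in the libraries labelled KO (horizontal axis) for each tested member of 21 gene lists (rows). Filled points passed an adjusted p of 0.05, red for higher and blue for lower on day 3, open points did not, and bars mark the median of each list. The interferon-inducible GTPase and sarcomere lists have medians of 3.55 and 4.31, and the cholesterol synthesis list lies at -0.42. The most extreme values belong to genes at or near 0 on day 1 and depend on the prior count of the fit.

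Interferon response genes rose broadly, from Irf9 and Stat2 to antiviral effectors and antigen presentation, while the receptors and kinases moved little. Across 7 interferon-related lists, 95 of 137 tested members rose and 5 fell, with a median log2FC of 0.96. Without day 1 replicate 2 the counts were 95 and 6. The groups of day 1 and day 3 did not overlap in 104 of these genes. They follow in order from the ligands to the effectors.

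None of the 11 ligand genes passed the filter on low counts. Ifng, the type II interferon, reached at most 4 counts in any of the 6 libraries and Ifne at most 2, while Ifnb1, 4 Ifna genes and the other 4 ligands were at 0 in all 6. The floor of 3 counts corresponds to 0.126 to 0.136 CPM in these libraries, and a count of 0 allows levels up to it.

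The receptor and kinase genes were expressed and moved little. Ifnar1 was at 87.02, 86.5 and 99.1 CPM on day 1 and 80.3, 75.3 and 76.6 CPM on day 3, and all day 3 libraries were lower (log2FC -0.23, SE 0.07, adjusted p = 0.0146). This call was lost without day 1 replicate 3 (log2FC -0.16) or day 3 replicate 2 (-0.21). Ifnar2, the other chain of the type I receptor, was at 46.7, 38.9 and 44.4 CPM and then 55.7, 55.1 and 60.7 CPM, with all day 3 libraries higher (log2FC 0.40, SE 0.08, adjusted p = 0.00104). Ifngr1, a chain of the interferon gamma receptor, rose by a log2FC of 0.26, a call lost without day 1 replicate 3 (0.23) or day 3 replicate 3 (0.21). Of the kinases, Jak1 was at 196, 243 and 211 CPM and then 182, 196 and 187 CPM and was not called, and neither Jak2 nor Tyk2 passed the test.

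Among the genes for sensors of foreign nucleic acid and their adaptors, 7 of 16 rose and 1 fell (median log2FC 0.51). Zbp1, a sensor of Z-form nucleic acid that can trigger necroptosis, went from 0.586, 0.419 and 0.537 CPM to 21.9, 13.4 and 18.5 CPM. This is 34.9-fold by the group means, with all day 3 libraries far above day 1 (log2FC 5.11, SE 0.23, adjusted p = 2.16e-14). Dhx58, which encodes the RNA helicase LGP2, went from 0.767, 0.879 and 0.492 CPM to 13.3, 10.1 and 12.8 CPM without overlap (log2FC 4.06, SE 0.26, adjusted p = 1.83e-11). The cytosolic RNA sensor genes Ddx58 (RIG-I) and Ifih1 (MDA5) had log2FC values of 1.85 and 1.84. Eif2ak2, the gene of the RNA-activated kinase PKR, was at 11.9, 21.6 and 14.7 CPM and then 27.7, 25.6 and 28.04 CPM. Its day 1 replicate 2 was the highest of that group and its log2FC was 0.75, or 1.00 without that library. Trim25, a ubiquitin ligase of the RIG-I pathway, and Adar, the RNA-editing enzyme, rose by log2FC values of 0.83 and 0.96. None of the 4 adaptor genes rose. Ticam1, the Toll-like receptor adaptor TRIF, fell (log2FC -0.34), with day 1 replicate 2 within the range of day 3. Its call was lost on leaving out any single library but that one, at log2FC values from -0.26 to -0.35. Mavs, Tmem173 (STING) and Myd88 were not called, and Tmem173 fell without day 1 replicate 2 (-0.32). Over the list 8 then rose and 2 fell.

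Of the interferon regulatory factor, Stat and feedback inhibitor genes, 8 of 16 rose and 1 fell (median 0.20). Irf7, the factor that amplifies interferon gene transcription, was at 0.812, 0.712 and 1.25 CPM on day 1 and at 41.01, 27.8 and 38.4 CPM on day 3. Its day 3 mean was 38.6 times the day 1 mean (log2FC 5.27, SE 0.21, adjusted p = 5.89e-15). Irf9 and Stat2, whose products bind DNA together, both rose. Irf9 was at 5.55, 4.94 and 4.34 CPM and then 26.98, 23.6 and 24.5 CPM, and Stat2 at 26.3, 26.7 and 27.8 CPM and then 67.8, 58.5 and 59.7 CPM. None of these groups overlapped, and the log2FC was 2.34 for Irf9 and 1.20 for Stat2. Usp18, whose product removes Isg15 from proteins and inhibits the type I receptor, had 1 count in the 3 day 1 libraries together and 11.2, 4.24 and 8.39 CPM on day 3. The ratio of its group means was 528, with a 95% counting interval from 96.8 to 21444 (adjusted p = 2.97e-10). Irf1, an early target of interferon gamma, was at 54.7, 60.7 and 53.6 CPM and then 57.7, 56.6 and 58.8 CPM, and these groups overlapped. Irf2, Irf5, Stat3, Stat5b, Stat6 and Socs1 were not called either, while Socs3 (0.62) and Irf3 (0.36) rose. The call on Irf3 was lost without day 1 replicate 2, at a log2FC of 0.16, or without day 3 replicate 3 (0.32). Stat5a fell (log2FC -0.27), a call lost without day 1 replicate 1 or 3 or day 3 replicate 2 or 3 (log2FC -0.21 to -0.27).

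**Figure D3:**
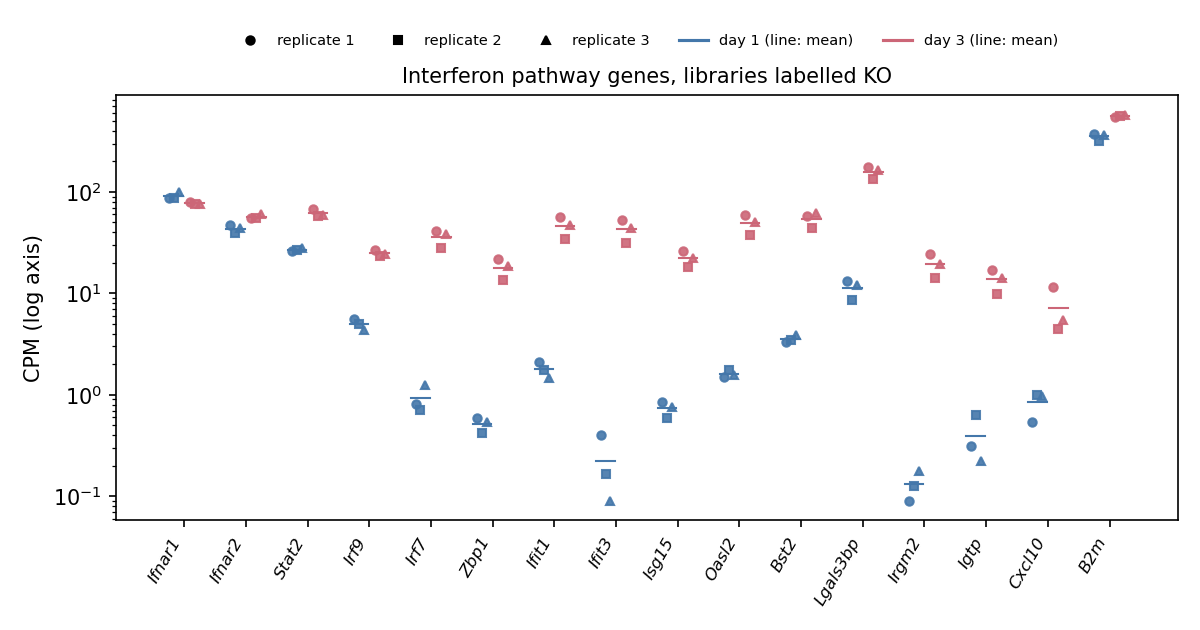
CPM (log axis) of 16 genes of the interferon pathway in the 3 day 1 (blue) and 3 day 3 (red) libraries labelled KO, with replicate numbers as symbols and group means as lines. The receptor genes Ifnar1 and Ifnar2 are at 38.9 to 99.1 CPM on both days, while genes such as Ifit3 and Irgm2 go from under 1 CPM to above 10 CPM.

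The core of the interferon-stimulated response element was found in many promoters of effector and GTPase genes. Sequences are shown for genes of these lists, and further below for muscle genes, because these lists have the highest medians of the step. Windows of 250 bases before to 50 bases after each RefSeq start (GRCm38.p6) were searched on both strands for GAAANNGAAA, counting overlapping matches. This was done after the values had been seen. The motif was in 9 of 10 matched GTPase promoters (90%), 17 of 39 effector promoters (43.59%) and 5 of 14 of antigen presentation genes. It was in 4 of 13 of nucleic acid sensing, 4 of 16 regulatory factors and Stats and 1 of 10 chemokine and cytokine genes. In the list of ligands, receptors and kinases 4 of 19 held it (21.05%), all of them Ifna genes without counts. Of all 27025 genes with a window, 1079 held it (3.993%). Of the 31 matched effectors called higher, 14 held the motif, and of 5 regulatory factors and Stats called higher, 1. It was in none of the 38 sarcomere, 16 energy metabolism or 28 DNA replication genes that matched by symbol. It was in 1 of 16 cell cycle exit genes (6.25%) and in 1 of 13 of both the Trp53 and immediate-early lists (7.692%). The 250 bases before the start follow on the strand of the gene, with the letters of each match on either strand in capitals. They are Ifit1 (chr19:34640639-34640888, plus strand), Ifit3 (chr19:34583279-34583528, plus), Isg15 (chr4:156200819-156201068, minus), Rsad2 (chr12:26456453-26456702, minus), Irgm2 (chr11:58214727-58214976, plus) and Igtp (chr11:58199306-58199555, plus).
Ifit1: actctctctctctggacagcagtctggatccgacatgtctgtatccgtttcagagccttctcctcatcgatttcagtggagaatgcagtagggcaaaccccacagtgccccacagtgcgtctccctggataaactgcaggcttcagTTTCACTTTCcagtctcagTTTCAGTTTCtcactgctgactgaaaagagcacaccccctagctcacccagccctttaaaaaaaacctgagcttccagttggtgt
Ifit3: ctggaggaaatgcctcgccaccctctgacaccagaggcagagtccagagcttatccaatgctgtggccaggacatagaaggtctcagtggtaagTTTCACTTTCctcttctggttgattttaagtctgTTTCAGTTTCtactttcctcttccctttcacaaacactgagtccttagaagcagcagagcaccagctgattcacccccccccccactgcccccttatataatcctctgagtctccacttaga
Isg15: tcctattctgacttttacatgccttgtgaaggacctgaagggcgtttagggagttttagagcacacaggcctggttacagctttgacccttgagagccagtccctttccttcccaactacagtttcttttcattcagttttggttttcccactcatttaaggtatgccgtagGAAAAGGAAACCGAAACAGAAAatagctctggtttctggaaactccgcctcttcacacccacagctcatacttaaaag
Rsad2: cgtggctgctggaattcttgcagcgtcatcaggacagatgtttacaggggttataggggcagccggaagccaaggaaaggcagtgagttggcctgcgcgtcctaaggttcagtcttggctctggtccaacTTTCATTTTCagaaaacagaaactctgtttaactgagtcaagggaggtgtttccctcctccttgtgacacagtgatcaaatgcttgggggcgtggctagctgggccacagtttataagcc
Irgm2: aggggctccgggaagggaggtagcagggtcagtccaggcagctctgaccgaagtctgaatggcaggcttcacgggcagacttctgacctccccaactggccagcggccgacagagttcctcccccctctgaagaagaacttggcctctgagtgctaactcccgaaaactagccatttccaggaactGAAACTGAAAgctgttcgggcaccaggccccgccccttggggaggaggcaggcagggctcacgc
Igtp: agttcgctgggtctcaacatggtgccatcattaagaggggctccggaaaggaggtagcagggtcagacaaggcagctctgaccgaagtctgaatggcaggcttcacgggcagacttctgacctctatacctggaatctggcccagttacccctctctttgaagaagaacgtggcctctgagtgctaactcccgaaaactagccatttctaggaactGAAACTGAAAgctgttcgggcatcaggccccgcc
Ifit1 and Ifit3 each hold 2 separate matches, which begin 104 and 85 bases and 156 and 122 bases before the start. In Isg15, 3 matches overlap in a run that begins 78 bases before the start. The Rsad2, Irgm2 and Igtp windows hold 1 match each. A match is a description of these letters and not a measured binding site.

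Among the interferon-induced effector genes, 42 of 50 tested members rose, 2 fell and 6 were not called. The median log2FC was 2.03, or 1.42 when the 5 members at 0 on day 1 were placed at their lower bound. The counts were also 42 and 2 without day 1 replicate 2. Ifit1, which binds viral RNA that lacks the host cap methylation, stood at 2.12, 1.76 and 1.48 CPM on day 1 and at 56.9, 34.5 and 46.7 CPM on day 3. The day 3 mean was 25.8 times that of day 1 (log2FC 4.68, SE 0.20, adjusted p = 1.18e-14). Ifit3 went from 0.406, 0.167 and 0.0895 CPM to 52.7, 31.5 and 44.6 CPM (log2FC 7.58, SE 0.32, adjusted p = 1.18e-14). Its near-identical copy Ifit3b rose with it, and reads are divided between such copies by the authors' estimation, so the level of each alone is uncertain. Ifit2 started higher, at 13.5, 24.7 and 13.2 CPM, and reached 36.1, 29.2 and 33.8 CPM, a log2FC of 0.94, or 1.28 without day 1 replicate 2, which was the highest of its group.

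The Oas genes encode 2',5'-oligoadenylate synthetases, which are activated by double-stranded RNA, and several were nearly silent on day 1. Oas1a and Oas2 had no counts in any day 1 library and 4.75, 3.26 and 4.80 CPM and 6.16, 2.68 and 3.68 CPM on day 3. Against a floor of 3 counts per library they were at least 32.4-fold and 31.7-fold higher on day 3 (adjusted p = 4.62e-09 and 1.20e-08). The level of Oas1a alone is uncertain, as it has a close copy in Oas1g. Oas3 had 3 counts on day 1 in all and 4.16, 2.64 and 4.26 CPM on day 3. Oasl2, an Oas-like gene, went from 1.49, 1.76 and 1.57 CPM to 58.8, 37.8 and 50.03 CPM (log2FC 4.92, SE 0.20, adjusted p = 4.59e-15).

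Isg15, the ubiquitin-like modifier, was at 0.857, 0.586 and 0.761 CPM on day 1 and at 26.4, 18.2 and 22.4 CPM on day 3 (log2FC 4.92, SE 0.22, adjusted p = 2.16e-14). All 6 tested genes of its conjugation pathway and of interferon-induced ubiquitin ligases rose, among them Uba7, the activating enzyme (1.29), Herc6, a ligase (0.86), and Trim21, an antibody receptor and ligase (2.22). The 4 Parp genes rose by log2FC values from 0.66 (Parp12) to 2.56 (Parp14). Lgals3bp, a secreted glycoprotein gene, went from 13.3, 8.58 and 12.04 CPM to 177, 135 and 164 CPM (log2FC 3.81, SE 0.16, adjusted p = 1.22e-14).

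Bst2, which encodes the virus-tethering protein tetherin, went from 3.29, 3.47 and 3.85 CPM to 57.99, 44.05 and 61.3 CPM (log2FC 3.94, SE 0.17, adjusted p = 2.16e-14). Rtp4 went from 2.17, 2.47 and 2.19 CPM to 27.4, 19.7 and 25.7 CPM (log2FC 3.41, SE 0.15, adjusted p = 2.17e-14), and Xaf1, a pro-apoptotic factor, from 0.992, 0.754 and 0.358 CPM to 17.8, 15.6 and 16.02 CPM. Rsad2, the antiviral enzyme viperin, and its neighbour Cmpk2 were already detectable on day 1 and had log2FC values of 2.76 and 1.85. The dynamin-like Mx2 had 2 counts on day 1 in all, both in replicate 2, and 6.07, 3.66 and 4.44 CPM on day 3, a ratio of 169 with a counting interval from 44.3 to 1338. Ifi44, with 1 count on day 1 and 23.5, 13.9 and 19.7 CPM on day 3, had a ratio of 1267 (counting interval 233 to 51468). The Ifitm genes, whose products block virus entry at membranes, behaved differently. Ifitm3 and Ifitm2 had the highest mean TPM (a level corrected for transcript length and library size) of the effectors on day 3, at 1096 and 930.2. Neither was called, and their days overlapped at 279, 219 and 285 CPM and then 329, 284 and 336 CPM for Ifitm3. Ifitm1 fell from 23.1, 15.4 and 21.8 CPM to 7.11, 7.73 and 8.12 CPM (log2FC -1.39, SE 0.15, adjusted p = 2.36e-07). Samhd1, Nmi, Isg20 and Slfn5 were also not called.

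The interferon-inducible GTPases, which attack the membranes of intracellular pathogens, rose nearly all. Of 15 genes, 14 rose and none fell, with a median log2FC of 3.55, and Gbp5 alone was not called (0.632, 0.126 and 0.358 CPM, then 0.453, 0.447 and 0.942 CPM). Irgm2 was at 0.0902, 0.126 and 0.179 CPM on day 1 and at 24.7, 14.1 and 19.3 CPM on day 3. The mean rose 147-fold (log2FC 7.14, SE 0.32, adjusted p = 2.16e-14). Igtp went from 0.316, 0.628 and 0.224 CPM to 16.9, 9.96 and 14.3 CPM (log2FC 5.10, SE 0.33, adjusted p = 2.12e-11), and Irgm1 from 11.2, 12.8 and 9.89 CPM to 49.9, 33.5 and 41.1 CPM, a log2FC of 1.88. Iigp1 had 2 counts on day 1 and 4.35, 2.01 and 3.37 CPM on day 3. All 7 genes of the Irg branch rose, as did 7 of 8 guanylate-binding protein genes, whose log2FC ran from 1.68 for Gbp4 to 5.17 for Gbp7. Day 3 replicate 1 was the highest of the 3 day 3 libraries in all 13 GTPase genes with a day 3 mean of at least 1 CPM, at a median of 1.39 times the mean of the other pair. Without this library 14 of the genes still rose. Tgtp1 and Tgtp2, and several Gbp genes, are close copies whose separate levels are uncertain.

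Antigen presentation genes rose by smaller factors. In that list 14 of 17 rose and none fell (median log2FC 0.71), with 14 and 0 without day 1 replicate 2. B2m, the light chain of class I molecules, was at 376, 321 and 367 CPM and then 552, 559 and 579 CPM (log2FC 0.67, SE 0.10, adjusted p = 1.82e-05). The class I heavy chain genes H2-K1 and H2-D1 rose by log2FC values of 0.94 and 0.89 and H2-Q4 by 1.39. These genes are closely related in sequence, so their separate levels are uncertain. Tap1, a subunit of the peptide transporter, went from 2.84, 2.64 and 3.80 CPM to 11.9, 10.1 and 11.04 CPM (log2FC 1.83, SE 0.18, adjusted p = 3.95e-08). The immunoproteasome subunit genes Psmb8 and Psmb9 rose but stayed below 1 CPM on day 3, while Psmb10 went from 7.80, 7.70 and 8.77 CPM to 14.5, 12.1 and 13.01 CPM. Nlrc5, the transactivator of class I genes, was at 4.15, 5.15 and 4.52 CPM and then 4.66, 4.15 and 2.20 CPM and was not called, and Ciita, that of class II genes, had at most 3 counts.

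Of the chemokine and cytokine genes, 8 of 14 rose and none fell, and 4 rose under a filter at a mean count of 50, which leaves out low genes. Cxcl10, an interferon-induced attractant of T cells, went from 0.541, 1.00 and 0.985 CPM to 11.5, 4.42 and 5.47 CPM, with day 3 replicate 1 the highest (log2FC 3.07, SE 0.34, adjusted p = 2.44e-07). Ccl5 went from 6.95, 6.15 and 5.73 CPM to 11.7, 21.5 and 22.6 CPM (log2FC 1.57, SE 0.24, adjusted p = 3.05e-05). Here replicate 1 was the lowest of the day 3 libraries. Cxcl12, an attractant of progenitor cells, was at 76.2, 70.5 and 71.5 CPM and then 112, 141 and 143 CPM (log2FC 0.86). Cxcl9, Il15, Il1b and Il6 rose from under 1 CPM, Il6 to 1.58, 0.536 and 1.35 CPM. The inflammatory chemokine genes Ccl2, Ccl7, Cxcl1 and Cxcl5 were not called, and their groups overlapped.

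Most contractile genes rose, as did most genes of calcium handling and fusion. In the sarcomere list 40 of 45 tested genes rose and 1 fell, at a median log2FC of 4.31. Without day 1 replicate 2 the counts were 39 and 1. Day 3 replicate 1 was the highest day 3 library in 39 of 43 of these genes with at least 1 CPM, at a median of 1.47 times the others, and without it 38 rose. Acta1, the skeletal muscle actin, went from 49.9, 32.7 and 62.5 CPM to 3234, 1772 and 1931 CPM, a gain of 47.8-fold in the mean (log2FC 5.58, SE 0.26, adjusted p = 6.97e-14). The embryonic myosin heavy chain Myh3 went from 7.08, 9.25 and 9.31 CPM to 662, 334 and 344 CPM (log2FC 5.71, SE 0.25, adjusted p = 2.16e-14). The light chain Myl4 of embryonic muscle went from 1.94, 1.80 and 1.92 CPM to 286, 176 and 217 CPM (log2FC 6.90, SE 0.18, adjusted p = 7.64e-18). In each of the 3 genes replicate 1 stood above the other day 3 libraries, and in none did the days overlap.

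The Z-disc gene Actn2 was at 0, 0.209 and 0.134 CPM and then 20.2, 11.7 and 12.8 CPM, and Ankrd2, a stretch-responsive gene, at 0.0451, 0.209 and 0.134 CPM and then 27.6, 16.9 and 17.99 CPM. Both were close to 0 on day 1, with log2FC values of 6.93 and 7.25. Mybph, a myosin-binding protein gene, rose by 5.94. Des, the muscle intermediate filament gene, was already at 1948, 1539 and 1892 CPM on day 1 and reached 2345, 2109 and 2206 CPM (log2FC 0.31), a call lost without day 1 replicate 2 (0.19) or day 3 replicate 1 (0.27). Tpm3, a tropomyosin of slow muscle and non-muscle cells, was the one to fall (448, 391 and 427 CPM to 353, 349.6 and 376 CPM, log2FC -0.23), a call lost without day 1 replicate 1 (-0.19). Myh4, of fast fibres, was at 0, 1.84 and 0 CPM and then 0.0905, 0.134 and 0.224 CPM and was not called. Its day 1 counts were all in replicate 2.

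The E-box CAGCTG, a palindrome bound by MyoD and myogenin with their partners, was in 16 of 38 matched sarcomere promoters (42.11%), in 9 of 18 of excitation-contraction coupling and synapse genes (50%) and in 9 of 16 of energy metabolism genes (56.25%). Of all 27025 genes with a window, 4944 held it (18.29%), and none of the 10 GTPase genes did. It was in 1 of 11 fusion and membrane genes (9.091%) and 2 of 18 myogenic transcription factors (11.11%). Outside the muscle lists it was in 5 of 13 immediate-early genes (38.46%) and 6 of 16 interferon regulatory factor and Stat genes (37.5%). Below are 250 bases before the start of Acta1 (chr8:123894776-123895025, minus strand), Chrng (chr1:87205561-87205810, plus) and Pygm (chr19:6384158-6384407, plus), with CAGCTG in capitals. They were picked after the values had been seen.
Acta1: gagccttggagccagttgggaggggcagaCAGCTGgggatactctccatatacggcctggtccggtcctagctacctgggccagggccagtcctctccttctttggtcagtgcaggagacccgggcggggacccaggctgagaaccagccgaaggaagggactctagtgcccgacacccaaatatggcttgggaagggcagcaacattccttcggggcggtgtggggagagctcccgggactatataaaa
Chrng: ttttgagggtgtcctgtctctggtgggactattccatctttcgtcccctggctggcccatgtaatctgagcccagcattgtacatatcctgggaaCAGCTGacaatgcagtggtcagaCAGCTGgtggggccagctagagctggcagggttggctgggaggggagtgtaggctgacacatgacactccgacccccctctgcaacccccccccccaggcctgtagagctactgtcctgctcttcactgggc
Pygm: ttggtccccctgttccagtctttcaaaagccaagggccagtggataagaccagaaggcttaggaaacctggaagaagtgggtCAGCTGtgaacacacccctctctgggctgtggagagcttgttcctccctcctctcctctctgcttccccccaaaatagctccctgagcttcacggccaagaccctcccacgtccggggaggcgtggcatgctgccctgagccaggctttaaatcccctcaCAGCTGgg
Acta1 holds 1 match and Chrng and Pygm 2 each.

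Most calcium handling and synapse genes rose as well. In that list 24 of 29 rose and none fell (median log2FC 1.76), with 23 without day 1 replicate 2 and 22 without day 3 replicate 1. Casq2, a calcium store protein, went from 2.12, 2.64 and 2.64 CPM to 197, 122 and 143 CPM (log2FC 5.96, SE 0.20, adjusted p = 2.42e-16). Atp2a1, the calcium pump of fast fibres, went from 6.50, 6.99 and 8.28 CPM to 317, 206 and 229 CPM (log2FC 5.11, SE 0.17, adjusted p = 4.01e-16), and Cacna1s, the voltage sensor, from 0.406, 0.712 and 0.761 CPM to 36.9, 20.2 and 25.7 CPM. Of the acetylcholine receptor subunits, the abundant Chrna1 was at 537, 502 and 547 CPM and 673, 527 and 555 CPM and was not called. Chrng, the fetal subunit, was chosen after its values were seen and rose from 40.6, 29.6 and 46.3 CPM to 159, 114 and 121 CPM (log2FC 1.76, SE 0.15, adjusted p = 2.10e-09).

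Fusion genes rose with them. Mymk (myomaker), needed for membrane fusion of myoblasts, went from 10.5, 5.48 and 13.3 CPM to 494, 288 and 317 CPM (log2FC 5.24, SE 0.24, adjusted p = 5.85e-14), and Mymx (myomixer), its partner, from 0.632, 1.13 and 1.16 CPM to 29.8, 17.6 and 16.4 CPM. Cav3, the caveolin of muscle, was at 0 in every day 1 library and at 11.6, 8.26 and 6.78 CPM on day 3, at least 67.5-fold higher against a floor of 3 counts per library (adjusted p = 5.11e-11). In the fusion and membrane list 11 of 16 rose and 3 fell (median 0.64), against 12 and 3 without day 1 replicate 2. Those that fell were Myof (-0.59), Jam2 (-0.54) and Kirrel (-0.34), genes of a membrane repair protein and of adhesion.

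In muscle energy metabolism 17 of 20 rose and none fell (median 1.34; 14 rose without day 1 replicate 2 and 10 in the fit of the 6 libraries alone). Ckm, the muscle creatine kinase, went from 5.46, 5.32 and 7.30 CPM to 338, 167 and 200.3 CPM (log2FC 5.29, SE 0.22, adjusted p = 5.85e-14). Mb, myoglobin, went from 0.677, 0.502 and 0.403 CPM to 42.5, 23.5 and 27.95 CPM, Cox6a2, a muscle subunit of cytochrome oxidase, from 0.135, 0.251 and 0.358 CPM to 31.96, 22.6 and 23.1 CPM, and Ckmt2 from 0 in all day 1 libraries to 1.67, 1.38 and 1.66 CPM. Pygm, the glycogen phosphorylase of muscle shown above for its promoter, had a log2FC of 5.28. The glycolytic genes Gapdh and Aldoa had log2FC values of 0.35 and 0.39, and both calls were lost without day 1 replicate 2 (0.16 and 0.26). That of Gapdh was also lost without day 3 replicate 2 or 3 (0.34 each).

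The transcription factors of muscle had a lower median than the contractile genes. Of 23 tested, 9 rose and 3 fell (median 0.11), and without day 1 replicate 2 7 rose and 5 fell. With an offset for GC content fitted per library, 5 fell. Myog, myogenin, was at 32.4, 27.9 and 40.96 CPM and then 724, 366 and 389 CPM (log2FC 3.87, SE 0.28, adjusted p = 1.51e-10), with day 3 replicate 1 far above the others. Myod1 was at 254, 133 and 252 CPM and then 337, 321 and 322 CPM, where day 1 replicate 2 was far below the rest. Its log2FC was 0.62, and 0.35 without that library. Mef2c rose from 0, 0.209 and 0 CPM to 1.31, 0.849 and 1.26 CPM, and its day 1 counts were all in replicate 2. Tcf3, the E protein partner of MyoD, was not called, but fell without day 1 replicate 2 (-0.33). Eya1 (-0.69), Runx2 (-0.34) and Tcf12 (-0.24) fell, Tcf12 not without day 3 replicate 2 (-0.20).

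No DNA replication or mitosis gene was called lower in this step. In the DNA replication list 15 of 34 rose and none fell (median log2FC 0.26), and in the mitosis list 20 of 37 rose and none fell (median 0.29). Without day 1 replicate 2 the numbers that rose were 15 and 28. These small changes depended on single libraries and on the model. For replication 9 rose without day 1 replicate 3 and 8 without day 3 replicate 2, for mitosis 13 rose without day 3 replicate 3, and a fit of the 6 libraries alone called 14 of the 71. Fen1, the flap endonuclease, went from 40.7, 34.4 and 34.6 CPM to 48.6, 56.02 and 58.2 CPM (log2FC 0.57, SE 0.09, adjusted p = 1.98e-05), and Rrm2, of ribonucleotide reductase, from 154, 128 and 129 CPM to 172, 213 and 212 CPM. Aurkb, a mitotic kinase, went from 72.00, 56.4 and 67.5 CPM to 94.9, 112 and 124 CPM (log2FC 0.76, SE 0.11, adjusted p = 9.69e-06). In these genes day 3 replicate 1 was the lowest of the day 3 libraries. It was the highest in none of the 34 replication and 37 mitosis genes, at medians of 0.836 and 0.877 times the other pair. In the list of regulators of cell cycle exit 12 of 21 rose and 1 fell, with 7 that rose in the fit of the 6 libraries alone and 2 that fell with the GC offset. Cdkn1a, the Cdk inhibitor p21, was at 347, 249 and 342 CPM and then 707, 532 and 592 CPM (log2FC 0.96, SE 0.12, adjusted p = 1.84e-06). Rb1 rose by a log2FC of 0.91 and Ccnd3 by 0.81, while Ccnd1, cyclin D1, fell from 304, 249.6 and 304 CPM to 121, 125 and 138 CPM (log2FC -1.16, SE 0.10, adjusted p = 2.29e-09).

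Cholesterol synthesis genes moved down as a list. Of 22 tested, 15 fell and none rose (median log2FC -0.42), and 18 fell without day 1 replicate 2. Hmgcs1, which makes the substrate of the rate-limiting reductase, went from 346, 429.6 and 317 CPM to 238, 209 and 225 CPM (log2FC -0.70, SE 0.10, adjusted p = 8.87e-06). Sqle, the squalene epoxidase, went from 449, 459 and 455 CPM to 309, 289.5 and 316 CPM (log2FC -0.58, SE 0.06, adjusted p = 9.00e-08), and Idi1 and Lss fell by log2FC values of -0.63 and -0.57. No day overlapped with the other in these genes. Srebf2, the transcription factor of the pathway, was not called, but fell without day 1 replicate 2 (-0.27).

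Counts in the matrix and growth factor lists stand beside 15.5% called higher and 11.2% called lower over all genes tested, and the shares that fell in these lists are near the latter. In the extracellular matrix list 14 of 31 rose and 3 fell, with 11 and 5 without day 3 replicate 1 and 13 and 5 without day 1 replicate 2. With the GC offset 6 fell. Col1a1, fibrillar collagen I, went from 95.1, 60.7 and 97.8 CPM to 402, 493 and 246 CPM, with a wide spread on day 3 (log2FC 2.17, SE 0.19, adjusted p = 3.46e-09). Bgn, the proteoglycan biglycan, went from 514, 396 and 547 CPM to 1645, 1622 and 1528 CPM (log2FC 1.72, SE 0.09, adjusted p = 5.50e-13). Fn1, fibronectin, had the largest loss in CPM of any called gene, from 9639, 8731 and 9958 CPM to 6012, 7217 and 4949 CPM (log2FC -0.64, SE 0.12, adjusted p = 0.000255), and Tnc, tenascin C, and Col18a1 fell with log2FC values of -0.83 and -0.92. H19, an imprinted non-coding RNA, had the largest gain, from 3908, 3466 and 3781 CPM to 14671, 16102 and 15237 CPM (log2FC 2.04, SE 0.10, adjusted p = 7.20e-14). Its imprinted neighbour Igf2, a growth factor of muscle, went from 0.180, 0.461 and 0.448 CPM to 20.6, 18.5 and 15.7 CPM (log2FC 5.62, SE 0.27, adjusted p = 6.93e-14). The binding protein gene Igfbp5 fell from 3647, 3415 and 3888 CPM to 2576, 2607 and 2631 CPM (log2FC -0.49), and Dll1, a Notch ligand, rose by 1.50. In the growth factor and Notch list 14 of 24 rose and 3 fell, against 11 and 6 without day 1 replicate 2. In the fit of the 6 libraries alone 9 rose, and with the GC offset 5 fell.

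Calls in the stress and immediate-early lists stand beside 26.7% over all genes tested, and the shares called in the stress and Trp53 lists are near that value. Of 18 immediate-early genes 4 rose and 3 fell. Day 1 replicate 2 was the lowest day 1 library in 16 of the 18, at a median of 0.726 times the others, and without it 4 rose and 6 fell. With the GC offset 7 fell, and without day 1 replicate 1, 7 rose. Of 19 amino acid and endoplasmic reticulum stress genes 5 rose and none fell, against 12 that rose without day 1 replicate 1, 6 that rose and 2 that fell without replicate 2, and 1 that rose in the fit of the 6 libraries alone. Of 16 genes in the Trp53 list 1 rose and 4 fell, where the 1 that rose was not called without day 1 replicate 1 or 3 or day 3 replicate 1, and 2 fell without day 3 replicate 2 or in the fit of the 6 libraries alone. Egr2, an early growth response factor, had a log2FC of 1.51, Nupr1, a stress factor, one of 0.74, and Trp53inp1 one of -0.74.

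The largest negative log2FC values among called genes with at least 5 CPM on 1 of the days belonged mostly to genes outside these lists. Ngfr, the low-affinity nerve growth factor receptor, went from 5.19, 4.61 and 7.03 CPM to 0.815, 0.179 and 0.314 CPM (log2FC -3.67, SE 0.32, adjusted p = 4.45e-09). Glipr1 went from 9.34, 9.55 and 10.3 CPM to 1.95, 1.38 and 1.48 CPM (log2FC -2.60, SE 0.19, adjusted p = 3.31e-10), and Alox5, the 5-lipoxygenase of leukotriene synthesis, from 14.1, 11.5 and 14.3 CPM to 2.81, 3.22 and 3.59 CPM (log2FC -2.05, SE 0.13, adjusted p = 8.84e-12). In each of these genes every day 3 library was below every day 1 library. Alpk2 (-2.36), Col7a1 (-1.78), the integrin gene Itgb7 (-1.73), Cd24a (-1.68), the kinase anchor Akap12 (-1.66), the adhesion gene L1cam (-1.59), the axonal motor Kif1a (-1.54) and the potassium channel subunit Kcnmb4 (-1.51) followed. The row GU332589, named after a sequence record, was at 327, 2903 and 303 CPM on day 1 and at 88.9, 113 and 105 CPM on day 3. Its log2FC of -3.53 rested on day 1 replicate 2 and was -1.65 without it. Of the 12 genes with the most positive log2FC by the same limit, Itgb1bp2 (melusin, 0.361, 0.126 and 0.179 CPM to 58.5, 35.3 and 39.6 CPM, log2FC 7.63) and Nmrk2, a muscle nicotinamide riboside kinase (0.180, 0 and 0.179 CPM to 22.3, 13.2 and 15.6 CPM), have not been named above. The further genes with the largest losses in CPM were Actb (5175, 3679 and 5477 CPM to 3714, 3567 and 3507 CPM), whose days overlapped and whose log2FC was -0.41, Actg1 (-0.39) and the row AK018753 (-0.65), and Acta2, the smooth muscle actin, was among those with the largest gains (708, 535 and 687 CPM to 2327, 1714 and 1738 CPM, log2FC 1.58).

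In WT cells fewer interferon genes were called in the same step, and the direct test of the difference singled out many of them, while most sarcomere genes rose in both genotypes. The WT step had 2797 calls (19.7%), with 1566 higher (11%) and 1231 lower (8.68%). A direct test of the KO step minus the WT step called 858 genes (6.05%), of which 492 were higher (3.47%) and 366 lower (2.58%). Without day 1 replicate 2 of KO these were 515 and 562, and without day 1 replicate 3 of WT 244 were lower. Over the 7 interferon lists 30 of 137 genes rose and 14 fell in WT, and the KO step was more positive in 67 and more negative in 1. Of the 50 effectors, 16 rose and 4 fell in WT (median 0.27), and the difference of steps was positive in 30 and negative in 0. For the GTPases 4 rose in WT and 9 of 15 differed, all more positive in KO. For antigen presentation 5 rose in WT and 10 of 17 differed, all more positive in KO. In the sarcomere list 38 of 45 rose in WT (median 3.84), and the steps differed in 4 upward and 3 downward. Of the excitation-contraction coupling and synapse genes 17 of 29 rose and 1 fell in WT, and of the fusion and membrane genes 10 of 16 rose and 2 fell. In energy metabolism 6 of 20 rose in WT and none fell, and the step was more positive in KO in 5. Of the muscle transcription factors 3 of 23 rose and 10 fell in WT, and the step was more positive in KO in 5.

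**Figure D4:**
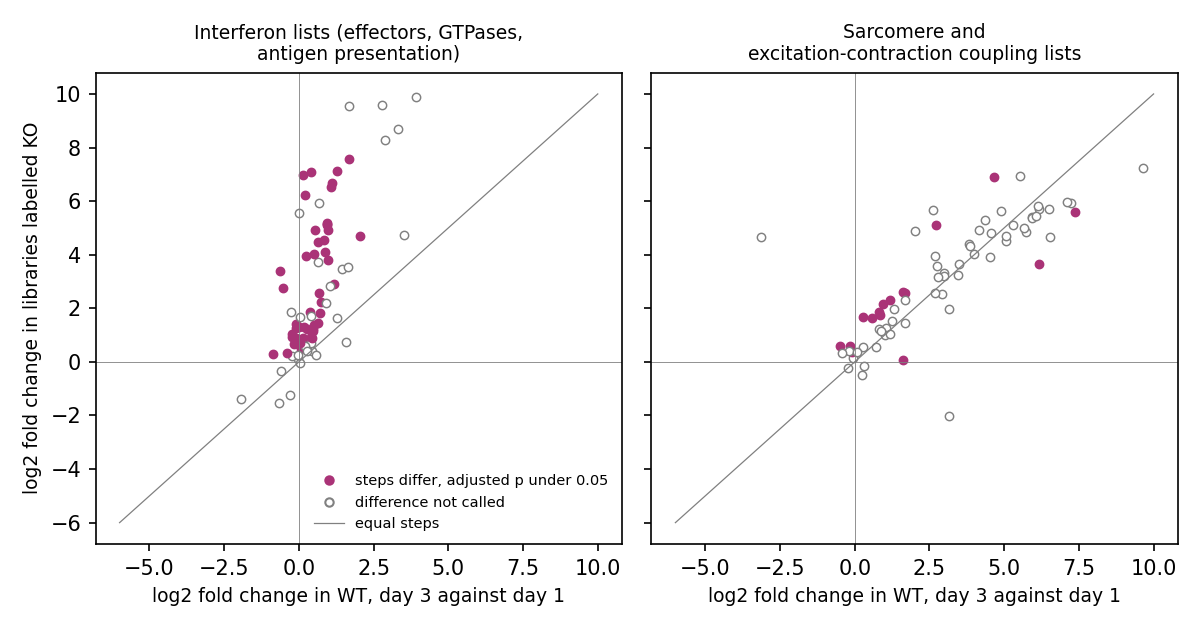
Fitted log2FC of day 3 against day 1 in WT (horizontal axis) and in the libraries labelled KO (vertical axis), for 3 interferon lists (left) and 2 muscle lists (right). Filled points passed the test of the difference between steps and the grey line marks equal steps. Of the effectors, GTPases and antigen presentation genes, 30, 9 and 10 are filled, all above the line. Most muscle genes are open and lie near it. Points for genes near 0 on day 1 depend on the prior count of the fit.

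Among genes called in this test with a mean of at least 5 CPM in 1 of the 4 groups, those with the most positive difference were Ifit3, Irgm2, Scara3, Irf7 and Hsd11b1. Ifit3 in WT was at 0.382, 0.382 and 0.171 CPM on day 1 and at 1.09, 0.997 and 0.954 CPM on day 3, a small gain beside that in KO (difference 5.89, SE 0.87, adjusted p = 8.38e-05). Irf7 in WT was at 2.34, 2.88 and 2.56 CPM and then 2.92, 3.64 and 3.82 CPM. On day 1 all WT libraries were thus above the KO libraries and on day 3 all were below (difference 4.85, SE 0.32, adjusted p = 1.11e-09). Irgm2 in WT was at 0.722, 1.02 and 0.854 CPM and 2.39, 1.99 and 1.95 CPM (difference 5.86, SE 0.53, adjusted p = 9.18e-08). Hsd11b1, which regenerates active glucocorticoid, went from 0.0902, 0.0837 and 0.179 CPM to 11.1, 8.35 and 7.13 CPM in KO and differed by 4.75. Scara3 was at 0 in the KO day 1 libraries and under 0.5 CPM on day 3, so its fitted difference of 5.39 depends on the prior count and was -0.24, not called, in limma on log2(TPM + 1).

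By the same limits, among the most negative differences were those of Pappa, Lrrc15, Ngfr and Actg2. Pappa, a protease of Igf-binding proteins, went from 3.83, 5.95 and 3.49 CPM to 0.770, 1.07 and 0.538 CPM in KO and differed from WT by -2.75. Lrrc15 fell in KO (-1.34) and had a log2FC of 1.34 in WT (difference -2.68, SE 0.24, adjusted p = 6.88e-08). Ngfr fell in both genotypes, by a log2FC of -1.01 in WT, and differed by -2.66. Actg2, an enteric smooth muscle actin gene, was at 9.56, 8.67 and 9.76 CPM and 13.1, 12.8 and 10.7 CPM in KO, not called, against a log2FC of 2.86 in WT (difference -2.48).

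Differences were also found in smaller groups. Of the cholesterol synthesis genes 1 fell and 1 rose in WT, and 7 of 22 had a more negative step in KO, among them Hmgcs1 (difference -0.63, SE 0.14, adjusted p = 0.00586). In the extracellular matrix list 21 rose in WT, and 12 had a more negative and 3 a more positive step in KO. Fn1 differed by -0.97 and Tnc by -1.11. In excitation-contraction coupling 9 had a more positive step in KO, among them Atp2a1 (difference 2.37, SE 0.23, adjusted p = 2.28e-07), which in WT was at 9.86, 9.50 and 13.2 CPM on day 1 and 70.5, 71.98 and 74.7 CPM on day 3. Acta1 gained less in KO on the log2 scale (difference -1.78, SE 0.34, adjusted p = 0.00137), from a higher day 1 level than the 5.69, 4.79 and 10.8 CPM of WT, and its level on day 3 in WT was 1129.7, 1139 and 1246 CPM. In the DNA replication list 19 rose in WT and no gene differed in the step.

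The step was also set into the time course of the KO cells. From day 0 to day 1, 7423 genes were called in KO (52.3%, with 27.2% higher and 25.2% lower), and from day 3 to day 6, 5865 (41.3%, with 20.2% higher and 21.2% lower). These comparisons share libraries with the step and their values are given side by side only. Of the 50 effectors, 27 rose and 1 fell from day 0 to 1, and 45 rose and 1 fell from day 3 to 6. Ifit3 had log2FC values of 1.20, 7.58 and 2.15 over the 3 successive steps and reached 141, 215 and 217 CPM on day 6, against 1.93, 0.976 and 1.38 CPM in WT. Stat2 had 0.87, 1.20 and 0.90 and reached 110.1, 123 and 115 CPM, against 28.5, 24.5 and 29.4 CPM in WT. All 15 GTPases rose from day 3 to 6, and 6 from day 0 to 1. Over the 7 interferon lists, 65 of 137 genes had already risen from day 0 to 1, and 9 fell.

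The muscle and cell cycle lists had other courses. For sarcomere genes 34 of 45 rose from day 0 to 1 and 37 from day 3 to 6, with Acta1 at 0.862, 1.03 and 0.649 CPM on day 0 and 6046, 7429.7 and 7381 CPM on day 6. All 34 replication genes fell from day 0 to 1 and again from day 3 to 6, so that the step between was the only one of the 3 in which none fell. Of the 22 cholesterol genes 19 rose from day 0 to 1, and 18 fell from day 3 to 6.

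**Figure D5:**
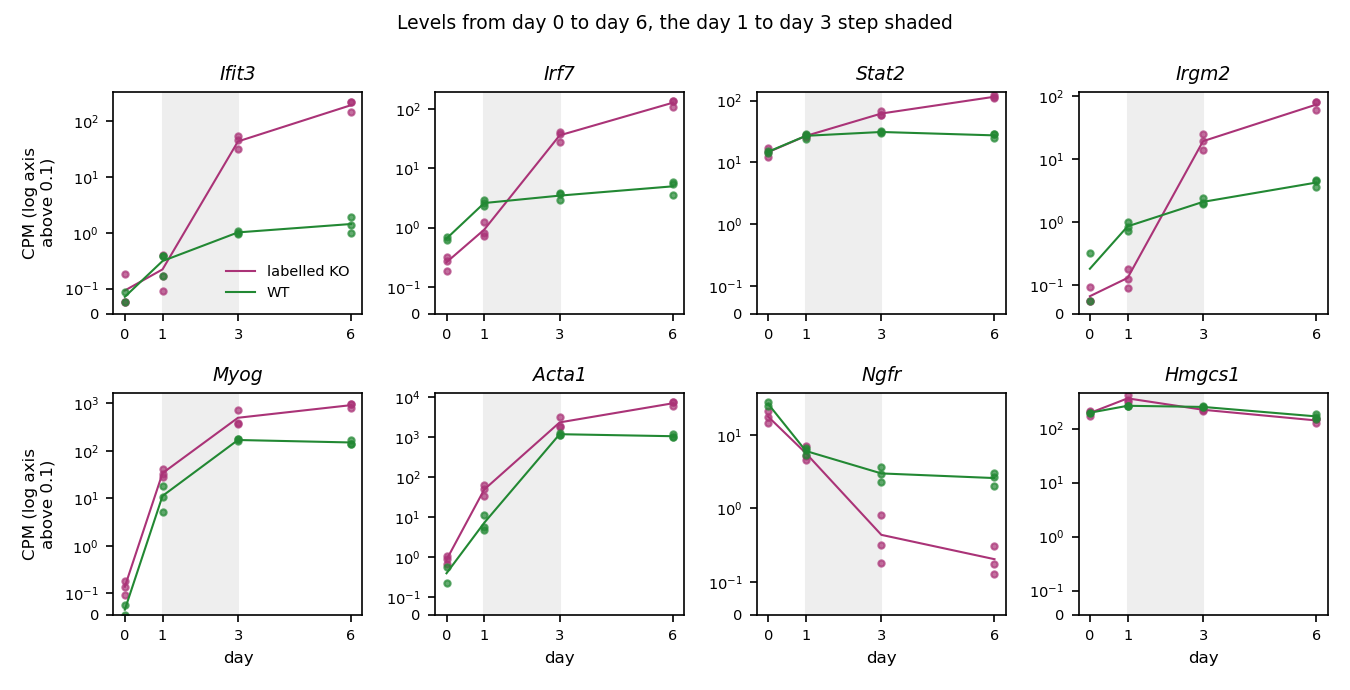
CPM on days 0, 1, 3 and 6 (log axis above 0.1) of 8 genes in the libraries labelled KO (purple) and WT (green), with points for libraries, lines through group means and the day 1 to day 3 step shaded. In KO Ifit3, Irf7 and Irgm2 rise above the WT values within the shaded step, Myog and Acta1 rise in both genotypes, and Ngfr falls in both.

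Markers of other cell types were near or at 0 in most cases. All 8 myoblast and myotube markers rose, and their summed level was 1999 to 2597 CPM on day 1 and 5661 to 8376 CPM on day 3. Of 7 macrophage markers 4 passed the filter, none rose and 1 fell, with a sum of 13.4 to 17.9 CPM on day 1 and 11.3 to 12.5 CPM on day 3 and with Ptprc and Adgre1 at 0. All 6 lymphocyte markers were at 0 in all 6 libraries. Of the 5 endothelial markers 1 rose and Kdr was at 0, and the sum was 0.582 to 0.722 CPM on day 1 and 1.35 to 1.92 CPM on day 3. Of the 6 adipocyte markers Adipoq, Cidec and Lep were at 0 and 1 fell, with a sum of 4.92 to 5.95 CPM on day 1 and 3.12 to 3.98 CPM on day 3. Of 5 osteoblast markers 1 rose (0.671 to 1.80 CPM, then 2.44 to 2.87 CPM), and none of 4 Schwann cell markers was called, with Sox10 at 0. The part of these cell types in the results was not tested. The 4 tested of 5 smooth muscle markers rose, from a sum of 664 to 884 CPM to 1934 to 2553 CPM, and Acta2, which differentiating myoblasts also express, accounted for most of it.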

How the data were processed

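Poly(A) RNA of 23 C2C12 libraries in 8 groups was sequenced. The authors deposited estimated counts per gene, rounded to whole numbers, and TPM values. The submitters' processing notes name Bowtie2, RSEM and mm10, and the annotation, strand use and versions are not given in the sources used here. RSEM divides reads between similar genes by estimation.

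From the 32793 rows of counts, 14187 genes passed edgeR's filter (minimum count 10, minimum total 15). Libraries were scaled by TMM and fitted with edgeR 4.0.16 (R 4.3.3) as group means over all 23 libraries, which share 1 estimate of the spread, and the step, the WT step and their difference were tested as contrasts. Alternatives used limma 3.58.1 on log2(TPM + 1) and log2(TPM + 0.1), DESeq2 1.42.0, other scalings and filters, a GC offset, a replicate block and single libraries left out. The fitting code was checked on counts simulated with known changes.

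The groups and gene lists were chosen with earlier results of these data known. Named were all members of the interferon lists, in each other list the 4 called genes with the largest change, the 2 with the most counts and those against its direction, and over all genes the 12 with the largest rise and fall (from 5 CPM), the 5 called genes with the largest differences between genotypes in each direction (from 5 CPM) and the 6 with the largest CPM change in each direction. Some genes that this rule names are not reported here. Chrng, Pygm, Myh3, Myh4 and Myod1 were chosen after their values were seen. Totals of 22197606 to 23684077 counts limit precision for genes under a few CPM, and floors of 3 counts and 95% counting intervals cover counting error only. Promoter sequences are from RefSeq (GRCm38.p6, the assembly also called mm10).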

Additional observations from a re-analysis of the deposited data

Results flagged for a closer look

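The day 1 to day 3 step differed between libraries labelled KO and WT in 492 genes with a more positive and 366 with a more negative step in KO, by edgeR's quasi-likelihood test of the difference with Benjamini-Hochberg adjustment. These are 3.47% and 2.58% of all genes tested, and the counts in the lists stand beside those shares. A more positive step was found in 8 of 16 genes of nucleic acid sensing, 6 of 16 interferon regulatory factors and Stats, 30 of 50 effectors, 9 of 15 GTPases, 10 of 17 genes of antigen presentation and 4 of 14 chemokine or cytokine genes, and a more negative one in 1 of the last list. Of the muscle lists, the step was more positive in 5 of 23 transcription factors, 4 of 45 sarcomere genes, 9 of 29 genes of excitation-contraction coupling and synapse, 2 of 16 of fusion and membrane and 5 of 20 of energy metabolism, and more negative in 3 sarcomere genes.

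In the remaining lists it was more positive in 4 of 37 mitosis genes, 3 of 21 of cell cycle exit, 3 of 31 of the extracellular matrix, 1 of 18 immediate-early genes and 3 of 24 of growth factor and Notch signalling. It was more negative in 2 of 21 of cell cycle exit, 12 of 31 of the extracellular matrix, 3 of 18 immediate-early genes, 7 of 22 of cholesterol synthesis, 1 of 19 of amino acid and endoplasmic reticulum stress, 3 of 16 of the Trp53 list and 3 of 24 of growth factor and Notch signalling. In lists of this size a single gene lies near the share over all genes.

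The single genes with a difference, as log2FC in KO minus log2FC in WT, were Ifit3 (5.89), Irgm2 (5.86), Scara3 (5.39), Irf7 (4.85), Hsd11b1 (4.75) and Atp2a1 (2.37) on the positive side. On the negative side they were Pappa (-2.75), Lrrc15 (-2.68), Ngfr (-2.66), Actg2 (-2.48), Acta1 (-1.78), Tnc (-1.11), Fn1 (-0.97) and Hmgcs1 (-0.63). Scara3 stayed under 0.5 CPM in the KO libraries of both days. All 14 kept their call without day 1 replicate 2 of KO.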

How the results depend on the processing

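Of the 111 genes named with a log2FC in KO, all kept their direction and call with RLE scaling, library size scaling, the GC offset and the replicate block, and so did the 110 with a value in DESeq2 and under a filter at a mean count of 50. At an absolute log2FC of at least 1, 47 dropped out, and 12 were not called in a fit of the 6 libraries alone, of which Actb and Myod1 stood with every single library left out. Ifnar1, Ifngr1 and Tcf12 were not called in limma on either TPM scale. Between genotypes, Scara3 (-0.24) reversed without a call in limma on log2(TPM + 1). The causes were not tested.

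Counts over all genes and over joined lists moved by more than 1.5 times as follows. At an adjusted p under 0.01, 1416 genes were higher and 903 lower in KO, 928 and 695 in WT, and 268 and 177 in the difference. With an absolute log2FC of at least 1 as well as an adjusted p under 0.05 these were 702 and 137, 467 and 194, and 222 and 78, with 0 replication or mitosis genes higher and 0 cholesterol genes lower. In a fit of the compared groups alone KO had 1002 higher and 657 lower, 14 replication and mitosis genes were higher, and WT had 2332 lower. Genes with a lower difference numbered 569 in DESeq2, 620 with the GC offset and 567 with replicate block and GC offset. Replication and mitosis genes called higher were 35, against 23 and 22 in limma with pseudocounts of 1 and 0.1 and 23 at an adjusted p under 0.01.

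For single lists, 523 counts under an alternative stayed within 1.5 times of the reported count and 104 did not. In the fit of the 6 libraries alone, genes called higher numbered 10 in energy metabolism (reported 17), 7 in cell cycle exit (12), 9 in growth factor and Notch signalling (14) and 1 in stress (5). With the GC offset, genes called lower numbered 7 in the immediate-early list (3), 6 in the matrix list (3), 5 in growth factor and Notch signalling (3) and 5 in the transcription factors (3). At a mean count of 50, 4 chemokine and cytokine genes were higher (8). At an absolute log2FC of at least 1, genes called higher numbered 4 in nucleic acid sensing (7), 5 in regulatory factors and Stats (8) and 4 in antigen presentation (14). They numbered 4 in the transcription factors (9), 6 in fusion (11), 10 in energy metabolism, 5 in the matrix list (14) and 8 in growth factor and Notch signalling. The steepest drops were to 1 in cell cycle exit (12), 1 in the immediate-early list and 0 in stress (5). At this setting no gene was called lower in the matrix, growth factor and Notch, transcription factor, fusion, immediate-early and Trp53 lists.

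With 1 library left out, genes with a lower difference ranged from 244 (without WT day 1 replicate 3) to 562 (without KO day 1 replicate 2), and replication and mitosis genes called higher from 23 (without KO day 1 replicate 3) to 43 (without KO day 1 replicate 2). The interferon count stayed between 91 and 97 and that of the 5 muscle lists between 95 and 99, against 101 with all libraries.

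The labels do not say whether replicate numbers pair the samples. Deviations of same-numbered KO libraries from their group means correlated at -0.0103 on average. The value of 0.0051 for other pairs is no separate comparison, because deviations cancel out within a group. With the number as a block, 2105 genes were called higher and 1503 lower in KO, and 97 interferon genes higher.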
